A study of Homo sapiens with 2 samples.

Results

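Mucins are large, heavily O-glycosylated proteins that cover epithelial surfaces, and 10 of their genes are described here in HT-29, an established line of human colorectal adenocarcinoma cells. The 4 gel-forming genes are MUC2, MUC5AC, MUC5B and MUC6, and the 6 membrane-bound genes are MUC1, MUC4, MUC12, MUC13, MUC17 and MUC20. They were chosen by name, and every probe set annotated to exactly 1 of them was used. A probe set is the group of short array oligonucleotides that together report a transcript. This gave 28 probe sets for 10 genes, of 41091 probe sets for 19775 genes on the array. The sample labelled siIFITM1 received a small interfering RNA (siRNA) against the mRNA of IFITM1, an interferon-induced membrane protein. The sample labelled siLuc received an siRNA against firefly luciferase, a gene foreign to human cells, and was the baseline. RNA was taken 72 h after transfection, and each siRNA had 1 array. Without replicate arrays no spread between samples is known, and differences are given by size alone, untested. As the RNA was bulk, fewer cells that make a mucin and less mucin RNA per cell cannot be told apart.

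Gel-forming mucins are secreted, link into polymers through their cysteine-rich ends and form the mucus layer. MUC2 is the main gel-forming mucin of the healthy colon, MUC5AC and MUC6 are those of the stomach's surface and glands, and MUC5B is best known from airway and salivary mucus. Membrane-bound mucins stay anchored in the apical membrane, where they help build the glycocalyx and can pass signals to the cell interior. HT-29 cells are widely used as a model in which mucus-producing and absorptive cells can arise.

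The signals are summaries by the MAS5 algorithm on a linear scale, and every log2 ratio is siIFITM1 over siLuc. Probe sets are called bright where the mean log2 signal over both arrays lay at or above the 75th percentile of all 54613 probe sets that are not controls, which is a signal of 393. They are called middle from the median, a signal of 57.4, up to that percentile, and dim below the median. Probe sets that report 1 gene disagreed in log2 ratio with an SD of 0.193 in the bright, 0.496 in the middle and 1.66 in the dim range, below called the same-gene SD. It serves as the scale for technical disagreement on this pair of arrays and does not cover variation between cultures. Of the 28 mucin probe sets 5 were bright, 10 were middle and 13 were dim. Signals of different probe sets depend on their probes and are not compared as levels.

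The targeted IFITM1 mRNA had a signal of 237 with siIFITM1 and 640 with siLuc, which is 37.1% of the baseline, at a probe set whose probes are shared between transcripts. Of 13 markers of colon epithelium, 10 were bright on this pair of arrays, with log2 ratios between -0.17 and 0.36. The other 3 (CDX1, CDX2 and GPA33) were dim at their brightest probe set. None of the leukocyte or the fibroblast and endothelial markers was bright. The summed signal over 7 measured leukocyte markers was 544 with siIFITM1 and 570 with siLuc, and over 9 measured fibroblast and endothelial markers it was 914 with siIFITM1 and 781 with siLuc. Of the last list LUM, a matrix proteoglycan gene, had 386 with siIFITM1 and 132 with siLuc, and without it the sum was 528 with siIFITM1 and 649 with siLuc. The other 3 genes of that list past the median were lower, with log2 ratios of -0.49 (COL1A1), -0.51 (DCN) and -0.24 (PECAM1). What part these markers have in the mucin values was not tested.

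Among the gel-forming mucins, MUC6 was 12.0-fold higher with siIFITM1 at its brighter probe set, from a siLuc signal in the dim range. MUC2 was at 55.3% of the siLuc signal and MUC5AC at 44.9% at its brightest probe set, while its other 3 probe sets had log2 ratios between -0.15 and 0.25. MUC13 and MUC20, the bright membrane-bound mucins, lay within 1.13-fold of the siLuc signal at each of their 4 bright probe sets. At their brightest probe sets MUC1 and MUC4 were lower by less than the same-gene SD, and MUC5B, MUC12 and MUC17 were read in the dim range only.

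Counted over all 28 probe sets, 8 differed by at least 2-fold, 2 of them higher with siIFITM1 (both of MUC6) and 6 lower. This is 28.6% of the mucin probe sets, close to the 26.1% among all 54613 probe sets (12.1% higher and 14% lower), so the count itself does not set the mucins apart. The shares differ by range. In the dim range 6 of 13 mucin probe sets were past 2-fold, against 48.6% of all dim probe sets. In the middle range it was 1 of 10, which was higher, against 7.02% of all past 2-fold and 2.72% higher. That 1 was MUC6, which reached the middle range only through its siIFITM1 signal, so nothing is read from this share. In the bright range it was 1 of 5, which was lower, against 0.322% of all past 2-fold and 0.0952% lower. The bright one was the brightest of 4 MUC5AC probe sets, and the others had log2 ratios of -0.06, 0.25 and -0.15. As it is a single probe set, nothing is read from this share either.

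**Figure D1:**
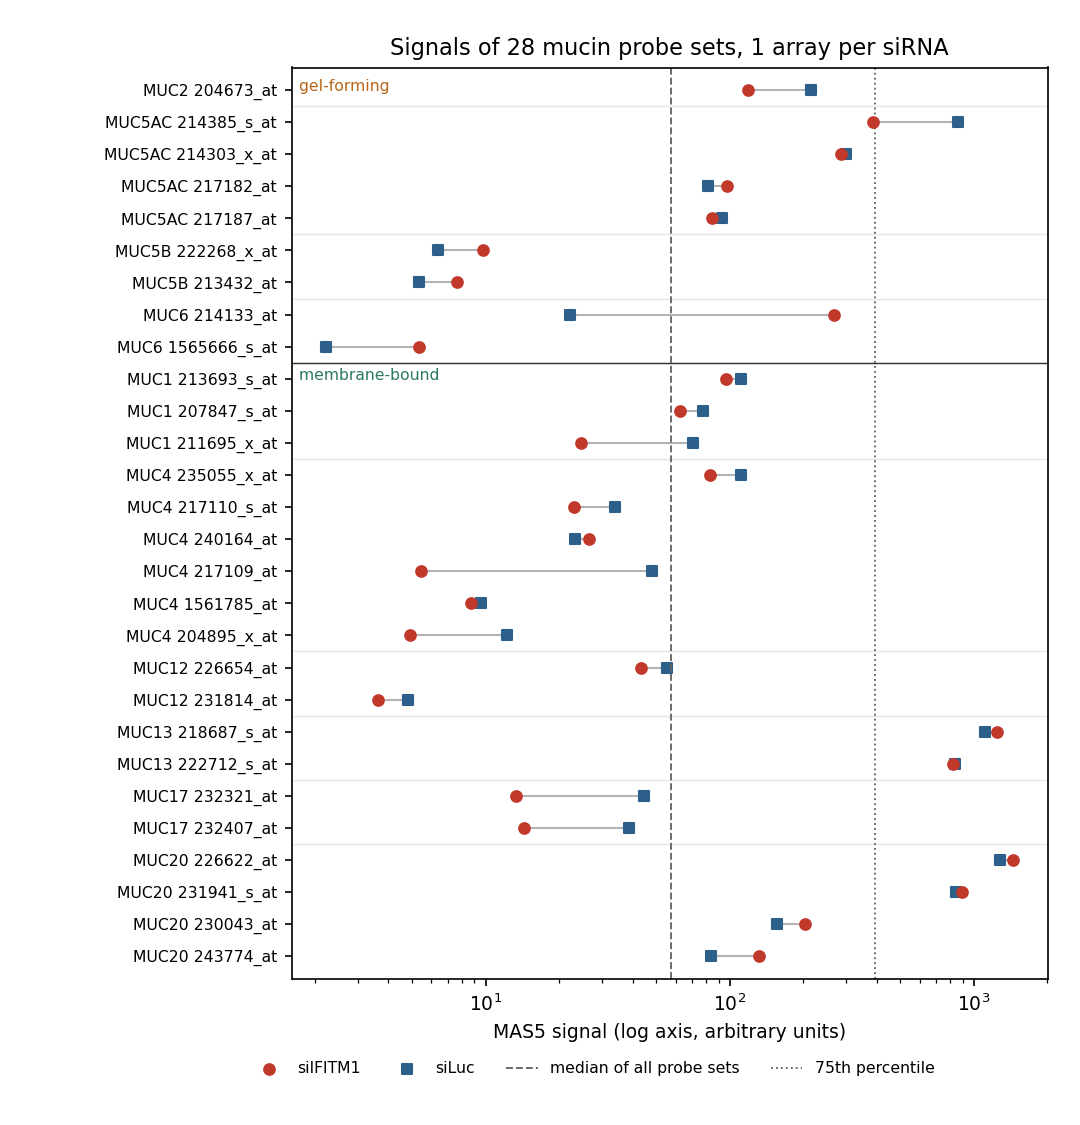
MAS5 signal (log axis) of each of the 28 mucin probe sets on the siIFITM1 array (red circles) and the siLuc array (blue squares), with a grey line joining the pair, 1 array each. The dashed line is the median of all probe sets (57.4) and the dotted line the 75th percentile (393). MUC6 214133_at spans both sides of the median, with 268 in siIFITM1 and 22.3 in siLuc. The bright MUC13 and MUC20 pairs nearly coincide, whereas MUC20 243774_at had 131 in siIFITM1 and 84.0 in siLuc.

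MUC6 encodes the gel-forming mucin of gastric gland cells and Brunner's glands. Its probe set 214133_at had a signal of 268 with siIFITM1 and 22.3 with siLuc, a log2 ratio of 3.59. The siLuc signal lay below the median of the array, and this probe set is middle only because of its siIFITM1 signal. With signals below 57.4 raised to that value, the difference was 4.67-fold. The other MUC6 probe set, 1565666_s_at, had 5.31 with siIFITM1 and 2.22 with siLuc (log2 ratio 1.26). Both signals are far into the dim range, where 22.8% of all probe sets were at least 2-fold higher. MUC6 was thus higher at both probe sets, but above the dim range it was seen by 1 probe set on 1 array.

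MUC2 encodes the polymer that forms the colonic mucus gel and is the product typical of goblet cells. Its single probe set, 204673_at, had 119 with siIFITM1 and 215 with siLuc, a log2 ratio of -0.86. Both signals were above the median of the array. The difference was larger than the same-gene SD of 0.496, but 893 of the 13653 middle probe sets (6.54%) were as low or lower. No second probe set was available to set beside it. The 250 bases before the annotated start of MUC2 (RefSeq, GRCh38.p14, chr11:1074624-1074873, plus strand) are shown because MUC2 is the only gel-forming member with an entry in the promoter table. Capitals mark a caudal-type (CDX) core, TTTATG, read on the other strand, and the first of its bases lies 176 bases before the start.
MUC2 promoter: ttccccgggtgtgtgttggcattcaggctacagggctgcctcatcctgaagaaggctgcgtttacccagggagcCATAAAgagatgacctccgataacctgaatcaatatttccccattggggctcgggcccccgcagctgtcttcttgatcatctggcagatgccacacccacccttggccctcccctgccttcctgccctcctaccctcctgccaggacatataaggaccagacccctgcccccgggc

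MUC5AC encodes the gel-forming mucin of the gastric surface and the airway, and it is often made in colorectal tumours. Its brightest probe set, 214385_s_at, had 385 with siIFITM1 and 858 with siLuc (log2 ratio -1.16). Of 13654 bright probe sets, 4 were this low or lower, itself included. Its second probe set, 214303_x_at, had 286 with siIFITM1 and 298 with siLuc, a log2 ratio of -0.06. The remaining pair, 217182_at and 217187_at, had log2 ratios of 0.25 and -0.15. At 217182_at the signal was 97.1 with siIFITM1 and 81.9 with siLuc. At 217187_at it was 84.4 with siIFITM1 and 93.4 with siLuc. Only 1 of the 4 MUC5AC probe sets therefore differed by more than the same-gene SD of its range. The 4 ratios spanned 1.40 log2 units, and among the 715 genes with 4 probe sets past the median, 49 (6.85%) had a span as wide, with a median span of 0.60. The ID of the brightest one ends in _s_at, for probes that match more than 1 transcript, so which transcripts it reported is not known.

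MUC5B was not read above the dim range by either probe set. Probe set 222268_x_at had 9.75 with siIFITM1 and 6.38 with siLuc. Probe set 213432_at had 7.60 with siIFITM1 and 5.36 with siLuc. The log2 ratios of 0.61 and 0.50 were well inside the SD of 1.66 of the dim range.

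In the gene table the gel-forming genes stand on chromosome 11 in the order MUC6, MUC2, MUC5AC, MUC5B. At their brightest probe sets the log2 ratios along that row were 3.59, -0.86, -1.16 and 0.61. The genes that flank the row were close to the baseline. AP2A2, an endocytic adaptor gene beside MUC6, had 2050 with siIFITM1 and 2367 with siLuc (log2 ratio -0.21). TOLLIP, a regulator of Toll-like receptor signalling beside MUC5B, had 882 with siIFITM1 and 949 with siLuc (log2 ratio -0.11). At their brightest probe sets the neighbours MUC2 and MUC5AC were both lower, MUC6 was higher, and the MUC5B value was dim. The other MUC5AC probe sets had log2 ratios of -0.06, 0.25 and -0.15.

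**Figure D2:**
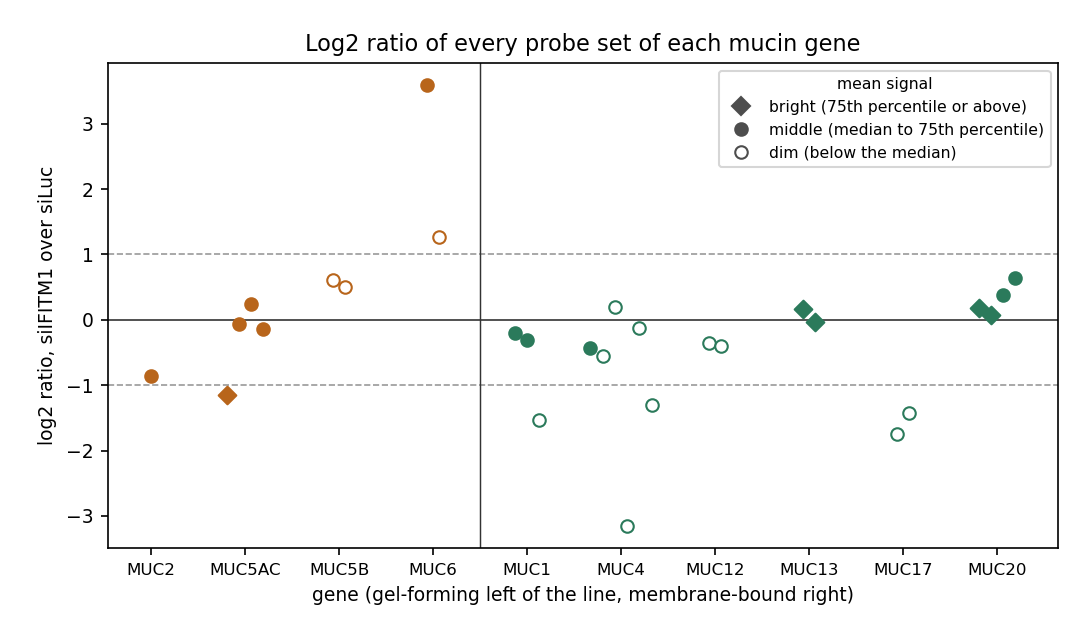
Log2 ratio of siIFITM1 over siLuc for every probe set of each mucin gene, gel-forming genes left of the vertical line and membrane-bound genes right. Diamonds are bright, filled circles middle and open circles dim probe sets, and dashed lines mark 2-fold. MUC20 is above 0 at 4 of 4 probe sets, while MUC5AC has 1 probe set at -1.16 and 3 between -0.15 and 0.25.

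MUC13 encodes a membrane-bound mucin of the intestinal apical surface. At 218687_s_at the signal was 1250 with siIFITM1 and 1111 with siLuc (log2 ratio 0.17). At 222712_s_at it was 820.0 with siIFITM1 and 841 with siLuc (log2 ratio -0.04). The signs differed and both ratios lay inside the SD of 0.193 of the bright range. The 250 bases before the MUC13 start (RefSeq, GRCh38.p14, chr3:124934752-124935001, minus strand) are shown as the promoter of a mucin that differed little. They held 41.6% G and C, against 59.6% in the MUC2 window and a median of 58% over the 27305 promoters in the table, and none of the motifs searched, hence no capitals.
MUC13 promoter: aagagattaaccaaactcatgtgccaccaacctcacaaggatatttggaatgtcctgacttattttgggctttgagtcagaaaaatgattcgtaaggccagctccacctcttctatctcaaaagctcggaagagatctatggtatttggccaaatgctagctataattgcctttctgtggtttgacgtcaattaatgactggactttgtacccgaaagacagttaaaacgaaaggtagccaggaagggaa

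MUC20 encodes a membrane-bound mucin that binds the hepatocyte growth factor receptor MET. At 226622_at the signal was 1450.5 with siIFITM1 and 1284 with siLuc (log2 ratio 0.18). At 231941_s_at it was 891 with siIFITM1 and 849 with siLuc (log2 ratio 0.07). These bright readings were inside the same-gene SD. The middle probe set 230043_at had 204 with siIFITM1 and 157 with siLuc (log2 ratio 0.38). At 243774_at, also middle, the values were 131 with siIFITM1 and 84.0 with siLuc (log2 ratio 0.65), which is past the SD of 0.496. All 4 MUC20 probe sets were higher with siIFITM1, as in 104 (14.5%) of the 715 genes with 4 probe sets past the median.

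MUC1 encodes the widely expressed epithelial membrane mucin, a carrier of signals through its cytoplasmic tail. All 3 of its probe sets were lower with siIFITM1. At 213693_s_at the signal was 96.6 with siIFITM1 and 112 with siLuc (log2 ratio -0.21). At 207847_s_at it was 62.9 with siIFITM1 and 77.8 with siLuc (log2 ratio -0.31). Both were inside the same-gene SD of the middle range. The third, 211695_x_at, was dim, with 24.5 with siIFITM1 and 71.0 with siLuc (log2 ratio -1.53). Raised to the median signal, its ratio was -0.31, a value set by that floor and the siLuc signal alone. It therefore says nothing on agreement with the other MUC1 probe sets. Every MUC1 probe set has an ID of the shared-probe kinds, _s_at or _x_at.

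MUC4 encodes a large membrane mucin that can bind the receptor ERBB2. Of its 6 probe sets 5 were lower and 1 was higher with siIFITM1, but only 1 was above the dim range. That probe set, 235055_x_at, had 83.0 with siIFITM1 and 112 with siLuc, a log2 ratio of -0.43 and inside the same-gene SD. With shared-probe IDs left out, the brightest MUC4 probe set was a dim one at 0.19. The lowest MUC4 ratio, -3.15 at 217109_at, came from 5.42 with siIFITM1 and 48.3 with siLuc, both below the median of the array. In the dim range 25.8% of all probe sets were at least 2-fold lower, and 3.89% were as low as this one. The remaining 4 dim probe sets of MUC4 had log2 ratios between -1.31 and 0.19.

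MUC12 and MUC17 encode membrane mucins of the intestinal brush border and stand beside each other on chromosome 7, next to MUC3A. MUC12 had 43.4 with siIFITM1 and 55.3 with siLuc at 226654_at (log2 ratio -0.35) and 3.63 with siIFITM1 and 4.81 with siLuc at 231814_at (log2 ratio -0.41). MUC17 had 13.3 with siIFITM1 and 44.6 with siLuc at 232321_at, a log2 ratio of -1.74. At 232407_at it had 14.4 with siIFITM1 and 38.5 with siLuc, a log2 ratio of -1.42. Both MUC17 probe sets were lower with siIFITM1, but all 4 signals lay below the median of the array, and raised to that median the ratio was 0. The second MUC17 ratio was inside the dim same-gene SD of 1.66 and the first just past it. MUC3A, another intestinal membrane mucin gene, had 235 with siIFITM1 and 174 with siLuc at its brightest probe set (log2 ratio 0.43) and a log2 ratio of -0.13 at the other. The 250 bases before the MUC17 start (RefSeq, GRCh38.p14, chr7:101019831-101020080, plus strand) are shown because MUC17 had the lowest ratio of any member at its brightest probe set. They held none of the motifs searched.
MUC17 promoter: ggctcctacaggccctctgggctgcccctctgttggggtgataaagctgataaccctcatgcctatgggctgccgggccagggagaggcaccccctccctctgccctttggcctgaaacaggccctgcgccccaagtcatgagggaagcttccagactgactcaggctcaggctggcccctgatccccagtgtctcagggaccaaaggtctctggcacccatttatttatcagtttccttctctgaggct

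The motifs were short cores of factors from the regulator list described below, each searched on both strands of the 250 bases. They were TGTTTAC for forkhead factors such as FOXA2, CCGGAT for SPDEF, TTTATG for CDX factors, AGATAA for GATA factors and GGGCGG for SP1, and none of these cores contains another. The promoter table had entries for 6 of the 10 mucins. Beyond the CDX core of MUC2, which 2736 of all 27305 promoters hold, MUC1 had 4 matches to the SP1 core and MUC4 had 1. A match to the SP1 core was present in 42.3% of all promoters, to the SPDEF core in 5.80%, to the GATA core in 9.37% and to the forkhead core in 2.98%. MUC12, MUC13 and MUC17 had no match in this window.

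By class, the log2 ratios at the brightest probe sets ran from -1.16 to 3.59 over the 4 gel-forming genes and from -1.74 to 0.18 over the 6 membrane-bound genes. Without MUC6 the gel-forming range ended at 0.61, a span of 1.77 log2 units beside 1.92 for the membrane-bound genes. The median was -0.12 for gel-forming and -0.28 for membrane-bound mucins, a difference of 0.16, beside a median of -0.03 over all 19775 genes. Of the gel-forming genes 1 was at least 2-fold higher and 1 at least 2-fold lower, and of the membrane-bound genes 0 were higher and 1 was lower, against 8.99% higher and 11% lower over all genes. The direction of the class difference was not stable. The gel-forming median lay midway between MUC2 at -0.86 and MUC5B at 0.61, and the MUC5B value was dim. Without MUC6 the difference was -0.58. It was -0.84 over genes read above the dim range, where MUC2, MUC5AC and MUC6 stood for the gel-forming class. The 2 classes could therefore not be ordered.

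**Figure D3:**
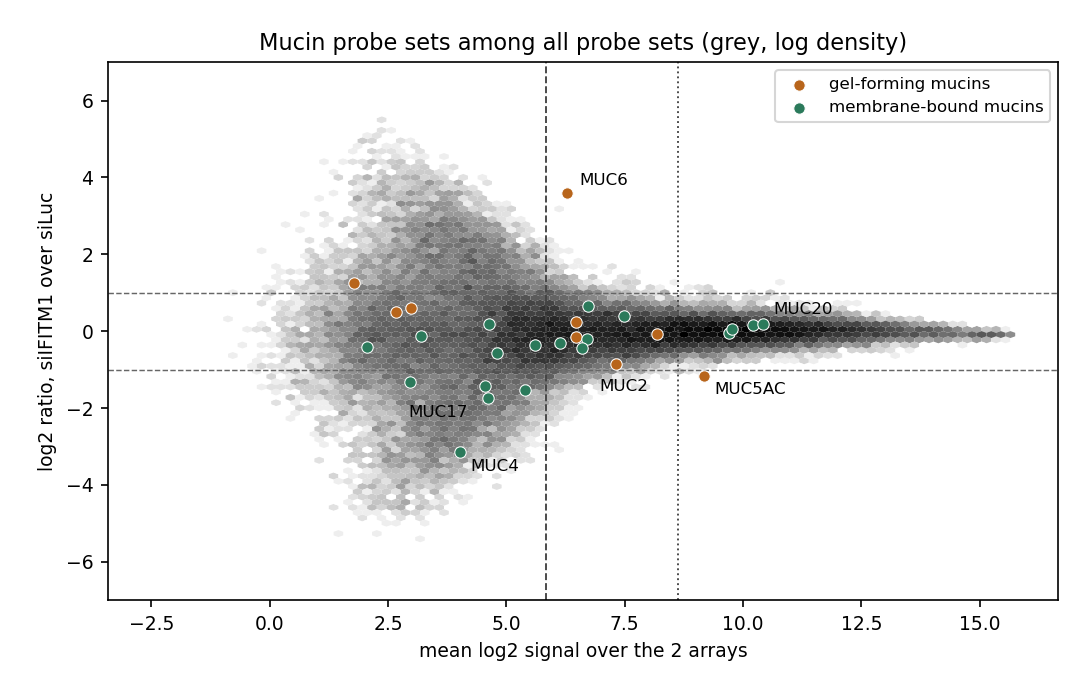
Log2 ratio of siIFITM1 over siLuc against mean log2 signal for all 54613 probe sets (grey, darker where denser) with gel-forming (orange) and membrane-bound (green) mucin probe sets on top. The vertical dashed and dotted lines are the median and the 75th percentile, and horizontal dashed lines mark 2-fold. The dim mucin probe sets, MUC4 and MUC17 among them, lie inside the grey cloud, while MUC6 and the brightest MUC5AC probe set lie outside its dense part.

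Mucins carry dense O-linked sugars, and the enzymes that add them were examined as lists. Past the filter, which keeps genes whose brightest probe set is middle or bright, 3.03% of 12225 genes differed by at least 2-fold (1.01% higher and 2.01% lower) and the median log2 ratio was -0.02. Of 14 GALNT genes past the filter, whose enzymes start O-glycans, 0 were 2-fold apart and the median was 0.08. GALNT5 had 409 with siIFITM1 and 266 with siLuc (log2 ratio 0.62), but the other of its probe sets past the filter was at -0.29. GALNT2 was at 0.43 and GALNT15 at 0.39. GALNT2 also had a probe set at -0.45.

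Of 23 genes of O-glycan core, extension and capping past the filter, 0 were 2-fold higher and 1 was 2-fold lower, with a median of -0.03. The lower gene was FUT3, the fucosyltransferase that makes Lewis antigens, with 84.7 with siIFITM1 and 171 with siLuc (log2 ratio -1.01). Its other probe set had a ratio of 0.40. A4GNT, which adds the terminal N-acetylglucosamine typical of MUC6-bearing gland mucin, had 126 with siIFITM1 and 69.1 with siLuc (log2 ratio 0.86), from a single probe set. B4GALNT3 was at -0.64, with another probe set at 0.80. Genes of core synthesis went both ways. C1GALT1, which extends the first sugar with galactose, was at -0.21, with its 3 probe sets from -0.43 to -0.09, and GCNT3, the core-branching enzyme of mucin-type glycans in the gut, was at -0.08. B3GNT6, which extends it with N-acetylglucosamine, was at 0.50, and GCNT1, another core-branching enzyme, had probe sets at 0.26 and 1.06.

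Genes for folding, packing and secretion of mucins and for proteins that sit with them in mucus had 0 of 14 past 2-fold and a median of -0.11. TFF3, the trefoil peptide secreted with MUC2, had 1135 with siIFITM1 and 1752 with siLuc (log2 ratio -0.63). TFF1, the trefoil peptide secreted with MUC5AC, had 291 with siIFITM1 and 440 with siLuc (log2 ratio -0.59). CREB3L1, a transcription factor activated by cleavage in the secretory pathway, was at -0.69, and its other probe set at -2.96. TFF2, the trefoil peptide of MUC6-producing gland cells, was higher, with 271 with siIFITM1 and 187 with siLuc (log2 ratio 0.53). AGR2, a disulfide isomerase that mice need to make the MUC2 counterpart, was at -0.12. The trefoil genes paired with MUC2 and MUC5AC were thus lower and the one paired with MUC6 was higher, each by less than 2-fold and at single probe sets. These pairings with single mucins were picked out after the values were seen. MUC5AC itself was lower past the same-gene SD at its brightest probe set only, and the siLuc signals of MUC6 were dim.

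Transcription factors reported to act on mucin genes had 16 members past the filter, of which 0 were 2-fold higher and 1 was 2-fold lower, with a median of 0.01. The lower gene was FOXA2, an endoderm factor, with 369.7 with siIFITM1 and 743 with siLuc (log2 ratio -1.01), and its 3 probe sets ran from -1.23 to -0.58. SPDEF, the goblet cell maturation factor, had 1031 with siIFITM1 and 1744 with siLuc (log2 ratio -0.76), and its 5 probe sets ran from -1.46 to -0.28. FOXA3 was at -0.53 at 1 probe set. FOXA1 (0.02), KLF4 (0.00473) and GATA6 (0.25) were not lower. Of the 6 dim members of the list 2 were 2-fold higher and 0 were 2-fold lower. ATOH1 had 67.8 with siIFITM1 and 22.9 with siLuc (log2 ratio 1.56). CDX2 had 19.1 with siIFITM1 and 5.87 with siLuc (log2 ratio 1.70). Among all dim probe sets 22.8% were 2-fold higher. FOXA2 and SPDEF were lower at each of their probe sets past the filter. So were SP3, with 3 probe sets from -0.77 to -0.07, and STAT6, with 2 at -0.60 and -0.14. Among the 715 genes with 4 probe sets past the median, 97 had all 4 lower. FOXA2, SPDEF, SP3 and STAT6 each had more or fewer than 4, so this count is no direct scale for them.

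**Figure D4:**
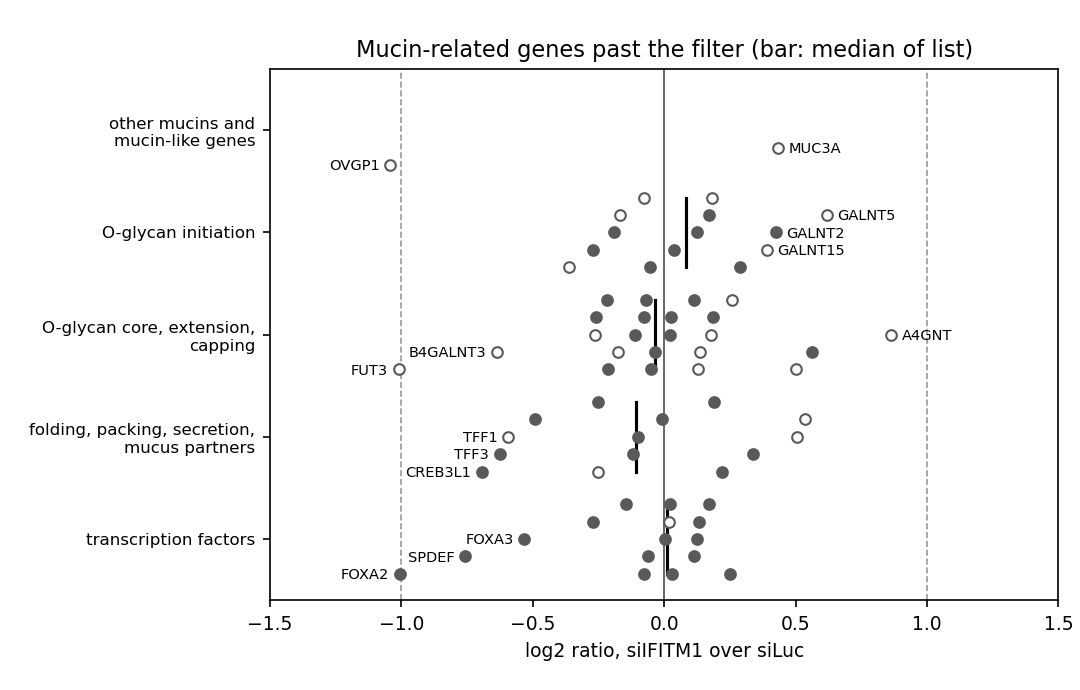
Log2 ratio of siIFITM1 over siLuc at the brightest probe set for genes of 5 mucin-related lists that passed the filter (filled, bright; open, middle), with vertical bars at the medians of the 4 lists with more than 4 such genes and dashed lines at 2-fold. Labels name the genes picked by size under the naming rule. OVGP1, FUT3 and FOXA2 lie just past the lower line, and the medians drawn run from -0.11 to 0.08.

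Other genes of mucin type were mostly dim. Of 9 measured, 7 were in the dim range at their brightest probe set. Of these 5 had at least 2-fold more signal with siIFITM1 and 0 had 2-fold less. Among all dim probe sets 22.8% were 2-fold higher and 48.6% past 2-fold either way. That share counts probe sets rather than genes, so nothing is read from the count. MUC7 had 8.48 with siIFITM1 and 2.64 with siLuc. MUC15 had 19.5 with siIFITM1 and 3.86 with siLuc, and MUC16 had 10.5 with siIFITM1 and 4.52 with siLuc. All of these signals were far below the median of the array. MUCL3 had 117 with siIFITM1 and 17.5 with siLuc at its brighter probe set (log2 ratio 2.74), but -0.02 at the other. MUC19 had 58.7 with siIFITM1 and 8.99 with siLuc (log2 ratio 2.71). Past the filter were MUC3A, given above, and OVGP1, an oviduct glycoprotein gene, at -1.04.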

How the data were processed

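Total RNA of 2 HT-29 samples, purified on RNeasy columns, was amplified and labelled with biotin, per the labels' protocols, and each sample was read on 1 single-colour array. The deposited values are intensities, made by the authors with MAS5 per the submitters' processing notes, with its version not given. Both arrays had the same mean signal, 500.1, once the outer 2% of values on either side were set aside, so a common scale had been set. No detection calls were used, and precision is limited by the number of arrays.

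Of 54613 probe sets that are not controls, 41091 named 1 gene, and 41037 of these were matched to a RefSeq gene table of GRCh38.p14 to update symbols. Signals were taken to log2 as deposited. A gene is represented by its probe set with the highest mean log2 signal. With 1 array per siRNA, differences were described by size (2-fold), with no test. The members, gene lists and ranges were chosen with earlier results of these data known. The named genes were all members, IFITM1 and, per list, those past 2-fold or otherwise the 3 most different past the filter. Other genes in the text were chosen after their values were seen. Alternatives were median centring, quantile normalization, a subtracted loess trend (span 0.3), a pseudocount of 32, a signal floor, other probe set choices, filters and folds. The calculation was tested on simulated data with 1 noise level for all probe sets, close to the same-gene SD of the bright range. The larger disagreement of the middle and dim ranges was not simulated. Python 3.11.15 was used, with numpy 2.4.6, pandas 2.3.3, scipy 1.17.1, statsmodels 0.14.6 and matplotlib 3.10.9.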

Additional observations from a re-analysis of the deposited data

Results flagged for a closer look

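A probe set annotated to MUC8, a gene in none of the lists compared here, had a signal of 68.6 with siIFITM1 and 11.0 with siLuc (217295_at, log2 ratio 2.64), which drew attention as a signal above the siLuc array outside the comparisons. Its mean lay in the dim range, and the other MUC8 probe set had 25.5 with siIFITM1 and 27.5 with siLuc.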

How the results depend on the processing

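No paired analysis was possible because there was 1 array per siRNA, and for the same reason no replicate could be left out. The difference in median log2 ratio between gel-forming and membrane-bound mucins, 0.16, was -0.43 with signals raised to the median of the array, -0.84 over probe sets at or above the median and -1.33 over those at or above the 75th percentile. The pseudocount also turned its sign, to -0.11. By 2 settings added after the data were seen it was -0.58 without MUC6 and 0.95 as a difference of means. It stayed above 0 in the other 5 settings. The 8 mucin probe sets at least 2-fold apart became 3 with the pseudocount, 2 with raised signals, 4 without shared probes, 2 at or above the median, 1 at or above the 75th percentile and 3 at 3-fold. Median centring, quantile normalization and the loess trend left the count at 8. The 370 genes of the array past 2-fold became 144 with the pseudocount and 21 at or above the 75th percentile. MUC5AC had a log2 ratio of 0.25 without probe sets that share probes, opposite to its -1.16, and MUC4 then had 0.19 in place of -0.43. MUC6 stayed between 2.22 and 3.67 under every setting that gave it a value. Weak signal limits MUC5B, MUC12 and MUC17, whose probe sets were all below the median of the array. The cause was not tested.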
